A study of Salmo salar with 72 samples.

Results

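The genes described here were the 150 genes whose level in the spleen differed most between fish fed the same diet, of 19462 genes that passed 2 level filters and 69389 genes in the count tables. Levels are in CPM, the count of a gene divided by the total count of its library and scaled to a common total, and were used as log2 of CPM plus 0.5. A gene passed with a mean of at least 5 CPM over the 36 spleen libraries and at least 1 CPM over the 6 distal intestine (DI) libraries of fish fed the FM diet. The mean of each diet was then subtracted, and the 150 genes with the largest standard deviation (SD) of what remained were kept. The genes were thus chosen by their measured spleen values, and their spread in the spleen is given below as a description, without a test.

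Atlantic salmon (Salmo salar) smolts in seawater were fed 1 of 6 diets for 42 days, and RNA was sequenced from both tissues of 6 fish per diet, 72 libraries in all. The SBM diet held 30% soybean meal. The ICJ and ACJ diets held the same 30% soybean meal with inactivated and autolyzed Cyberlindnera jadinii yeast, the IWA and AWA diets the same with inactivated and autolyzed Wickerhamomyces anomalus yeast, and the FM diet was the fishmeal control. No sex, strain or genotype of the fish is given in the labels, and 2 fish were taken from each of 3 tanks per diet without a label for the tank. The p-values below therefore measure the spread between fish and treat fish of a tank as independent.

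Between 15062129 and 35187924 counts fell on genes in the spleen libraries, and between 6976621 and 30857656 in the DI libraries. The tissue labels were compared with marker genes. The erythrocyte genes summed to between 1473 and 3887 CPM in the spleen, against 3.76 to 109 CPM in the DI, and 4 enterocyte genes (cdh17, cdx1b, fabp2 and slc15a1) summed to at most 52.6 CPM in the spleen, against at least 362 CPM in the DI. Of these 4, slc15a1 alone had the higher median in the spleen, 1.03 CPM, against 0.509 CPM in the DI. The DI library of ICJ replicate 4 stood apart from the other DI libraries, with a median correlation of 0.743 with them, against 0.844 for the next lowest library. It held 1.72 CPM of the intestinal transcription factor gene cdx1b, against at least 71.6 CPM in every other DI library, and results that rest on it are also given without it.

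The spleen of teleosts stores and clears blood cells and holds much of the immune tissue of the fish, since they have no lymph nodes. The exocrine pancreas of salmonids is not a compact organ but a diffuse tissue scattered through the fat around the gut, and its acinar cells make the precursors of digestive proteases, lipases and carboxypeptidases in large amounts. Individual salmon also differ in the genes they carry, and genes of immune receptors and antigen presentation are among the most variable between individuals of vertebrate species.

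The SD between fish within diets ranged from 1.49 to 4.10 over the 150 genes on the log2 scale, with a median of 2.14, against a median of 0.213 over all 19462 genes. The last 2 genes inside the limit were LOC106612462 with 1.4936 and LOC106578982 with 1.4897, and the first 2 outside it were LOC106565122 with 1.4884 and cc068 with 1.4865, so the limit divides a continuous range. Before them LOC100136417, which RefSeq also lists as gapdh, LOC106569629 and ENSSSAG00000082472 had SDs between 1.4984 and 1.5006. The next genes outside were ENSSSAG00000042126, LOC106574784 and LOC123743719, between 1.4725 and 1.4798. Of the 150 genes, 137 were under 1 CPM in at least 1 spleen library and 79 had a count of 0 in at least 1. Only 64 of them (42.7%) could be paired with a RefSeq gene, 14 of them with a gene name in place of a LOC number, against 82.8% paired over all 19462 genes. Pairing was done on chromosomes only. Genes on unplaced scaffolds, 24 of the 150 (16.0%) against 1.90% of all genes, could therefore not be paired.

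The spread of these genes in the DI is a description too, since the rule read the DI levels of the 6 fish fed FM. Of the 150 genes, 43 (28.7%) reached the 1 CPM of the DI filter only through a single FM fish, which for 35 of them was FM replicate 1, against 0.971% of all genes, and such genes had to differ between FM fish. They were 31 of the 70 genes of the digestive enzyme group described below and 12 of the other 80. In the 30 fish of the 5 other diets, which the filter did not use, the median DI SD within diets was 1.78 on the log2 scale over the 150 genes, against 0.333 over all genes. At least 1 was reached by 137 of the 150 (91.3%), against 3.99% of all genes. Over all 36 fish the median DI SD was 1.80, against 0.343 over all genes, and 1.23 over the 150 genes next in the spleen ranking.

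Divided by how they varied together in the spleen, 70 of the 150 genes formed a single group, and the other 80 varied mostly one by one. Over all pairs of the 70 genes, the median Pearson correlation of the within-diet differences was 0.952 in the spleen and 0.826 in the DI, with DI pairs down to -0.66. Over all pairs of the other 80 genes it was 0.005 in the spleen and 0.064 in the DI. The 70 genes lay on 25 chromosomes. They are called the digestive enzyme group here after their leading genes, which are described next.

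The digestive enzyme group held 5 of the 6 genes of an exocrine pancreas list, cpb1, ctrl, tryp, ctrb and pdia2. The first of these encodes carboxypeptidase B, which removes basic residues from the ends of peptides, tryp encodes trypsin, ctrl and ctrb encode chymotrypsin-type proteases, and pdia2 a protein disulfide isomerase of acinar cells. Genes for the A-type carboxypeptidases (cbpa1, cbpa2) and an elastase-type protease (ela2l) were also in the group. Of the 20 genes with the largest spleen SD of all, 19 belonged to it, led by LOC106561547 and ENSSSAG00000112117 (SD 3.37 each). Among these 19 were also ENSSSAG00000079409, ENSSSAG00000120768, ENSSSAG00000068294, ENSSSAG00000121140, LOC106588017, LOC106592353, LOC106583236, LOC106576254 and LOC106577462. The sixth gene of the list, prss59, annotated as a serine protease, was not a member and lay between 8.56 and 18.7 CPM in every spleen.

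The levels of these genes in the spleen differed widely between fish fed the same diet. For cpb1 (chr29:40883653-40901229, Ssal_v3.1), the lowest, median and highest spleen values were 5.21, 38.8 and 654 CPM in fish fed SBM, 11.2, 32.2 and 2787 CPM in fish fed ICJ, and 1.4, 21.7 and 309 CPM in fish fed ACJ. They were 8.44, 157 and 4374 CPM in fish fed IWA, 4.03, 346 and 4610 CPM in fish fed AWA, and 0.124, 142 and 1271 CPM in fish fed FM. Every diet held a fish with little of this enzyme gene and a fish with at least 309 CPM, the span being 1145-fold in fish fed AWA, and the ranges of all 6 diets overlapped.

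The trypsin gene tryp (chr5:69887033-69889147) varied likewise. In fish fed SBM, ICJ and ACJ its spleen medians were 36.1, 29.3 and 14.3 CPM, and the highest single fish of these diets reached 578, 1627 and 212 CPM. Its lowest, median and highest values were 8.90, 124 and 2809 CPM in fish fed IWA and 4.22, 261 and 2768 CPM in fish fed AWA, against 0, 107 and 1147 CPM in fish fed FM. The diets again overlapped, and the span between fish of a diet was far larger than the distance between the medians.

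Over the 36 spleens, the gene of the group with the most counts, ENSSSAG00000093034, ranged between 0.166 and 9857 CPM with a median of 179 CPM. ENSSSAG00000120768 and ENSSSAG00000086355 followed by mean level, with highest values of 7361 and 7262 CPM. The elastase gene ela2l ranged between 0.373 and 5156 CPM, ctrb between 0 and 3908 CPM, ctrl between 0 and 3248 CPM, cbpa2 between 0 and 2566 CPM and cbpa1 between 0 and 2173 CPM. ENSSSAG00000006548 reached 7085 CPM.

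Summed over the 70 genes, the spleen level ranged between 40.1 and 119526 CPM, with a median of 2059 CPM. The lowest, median and highest sums were 213, 1362 and 18213 CPM in fish fed SBM, 432, 942 and 74151 CPM in fish fed ICJ, 116, 683 and 9765 CPM in fish fed ACJ, 288, 4951 and 112931 CPM in fish fed IWA, 194, 10542 and 119526 CPM in fish fed AWA, and 40.1, 3730 and 38638 CPM in fish fed FM. In 11 of the 36 spleens the sum was over 10000 CPM, and in AWA replicate 3 and IWA replicate 4 the group took 12% and 11.3% of all counts. In bulk tissue, fewer cells of a type and less RNA per cell cannot be told apart.

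**Figure D1:**
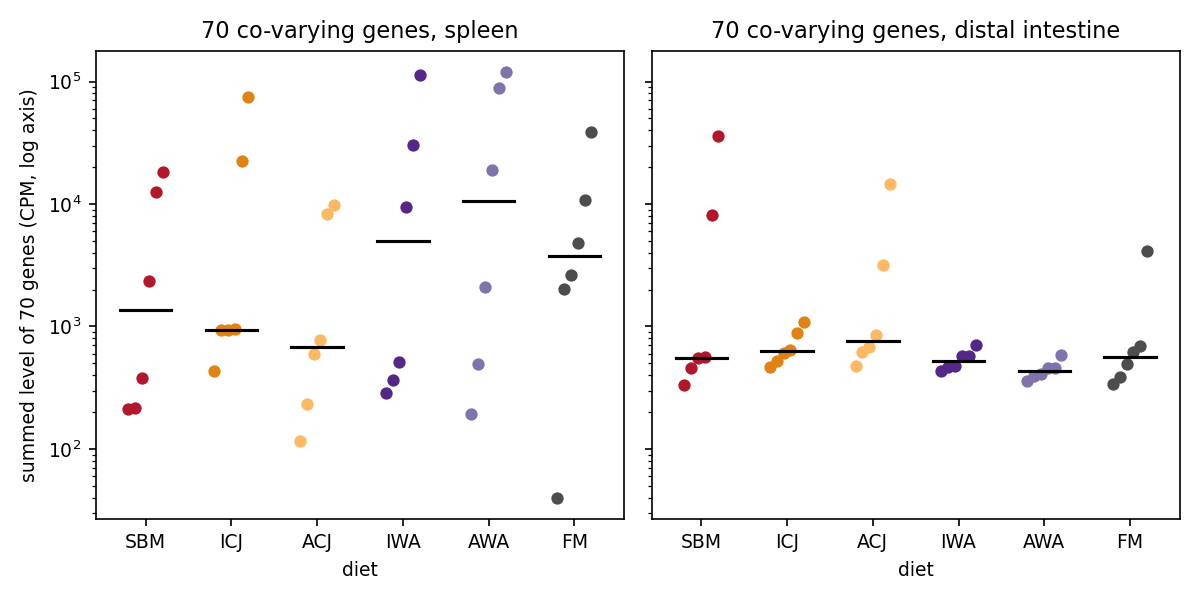
Summed level of the 70 genes of the digestive enzyme group (CPM, log axis) in the spleen and the distal intestine by diet, with 1 point per fish and a black line at the median of the 6 fish. The spleen sums lie between 40.1 and 119526 CPM and spread widely in every diet, whereas most DI sums lie near 568 CPM and single fish fed SBM and ACJ stand above 10000 CPM.

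The plot of summed levels by diet also shows the same genes in the DI. The DI sum had a median of 568 CPM, was over 1000 CPM in 6 of 36 fish and over 10000 CPM in 2, SBM replicate 5 with 36072 CPM and ACJ replicate 1 with 14487 CPM. Among the enzyme genes themselves the DI level was mostly near 0, and cpb1 had a DI median of 0.143 CPM and a highest value of 1407 CPM. In all, 45 of the 70 genes had a DI median under 1 CPM, and 44 of these correlated above 0.5 across the DI libraries with the sum of the 5 pancreas list genes. Of the 8 genes with a DI median of at least 10 CPM, 1 did. The list genes cpb1, tryp and ctrb are themselves among the 45, and pdia2 is among the 8. The 70 genes were also grouped for varying together in the spleen. These counts are thus a description, with no share over all genes beside them.

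A fish that was high in the spleen was not usually high in the DI. The spleen with the largest sum, AWA replicate 3, came from a fish with 409 CPM in the DI, and the DI with the largest sum, SBM replicate 5, from a fish with 218 CPM in the spleen. In ICJ replicate 2, FM replicate 1 and ACJ replicate 1 both tissues ranked among the 12 highest of their tissue. Over all 36 fish, the 2 sums had a within-diet Pearson r of -0.069 and a Spearman rho of -0.002, and r was -0.098 without the 2 fish farthest from the median.

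The within-diet relation between the spleen and the DI of the same fish was tested gene by gene with 100000 permutations of the fish within diets, adjusted over all 19462 genes. It was called positive for 542 of them (2.78%). Of the 150 genes, 69 were called, all of them positive. These were 1 of the 70 genes of the digestive enzyme group and 68 of the other 80 (85.0%). The median r was -0.004 in the group, 0.835 in the other 80 genes and 0.028 over all genes. In the 30 fish not fed FM it was -0.075 in the group, 0.835 in the other 80 genes and 0.06 over all genes. The called gene of the group was ENSSSAG00000084775 (r = 0.616, adjusted permutation p = 0.00333), and the lowest coefficients in the group were those of LOC100196494 (r = -0.375, adjusted permutation p = 0.36) and LOC106571374 (r = -0.221, adjusted permutation p = 0.818).

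**Figure D2:**
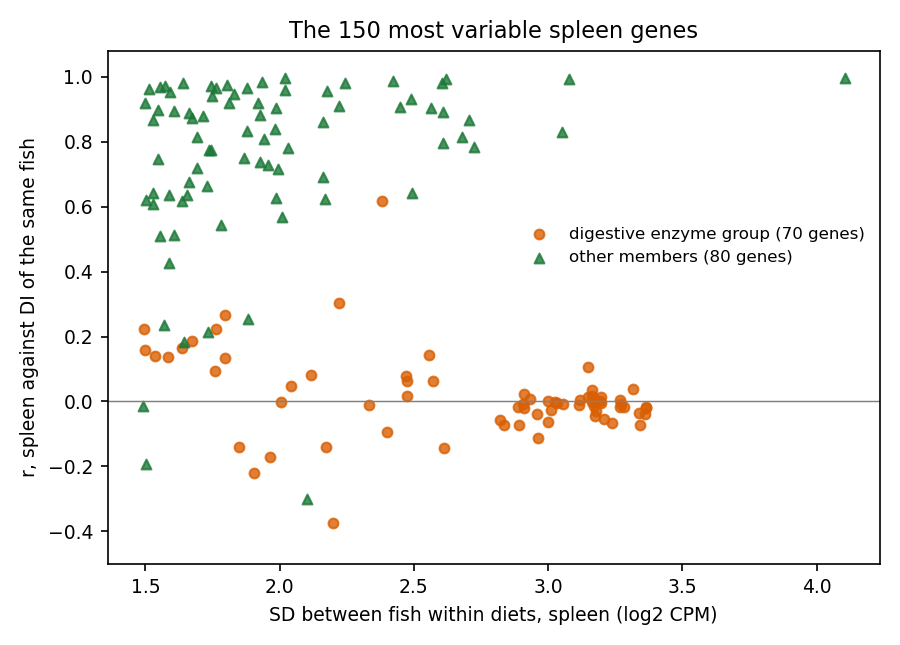
The SD between fish within diets in the spleen (log2 CPM, x axis) against the Pearson r between the spleen and the DI of the same 36 fish within diets (y axis), with 1 point per gene, circles for the 70 genes of the digestive enzyme group and triangles for the other 80. The circles lie around r = 0 with 1 at 0.616, and 72 of the 80 triangles lie above 0.5.

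As drawn in the plot of SD against r, genes of the same spleen SD fell into separate sets by their relation to the DI. Without ICJ replicate 4, 71 of the 150 genes were called, and without the 2 fish farthest from the median of each gene 59 were called. Of the 150 genes next in the spleen ranking, 64 (42.7%) were called, so the relation was not particular to the genes inside the limit.

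Other cell types were measured beside the digestive enzyme group. The summed level of a list of 19 liver and plasma protein genes ranged between 12.6 and 306 CPM in the spleen, with 16 of the genes at a median under 1 CPM, and had a within-diet r of 0.612 with the spleen sum of the group (rho 0.562, and r 0.561 without the 2 fish farthest from the median). The leading genes of the liver list, rbp4, apoeb and apoc1, had an r of 0.477, 0.424 and 0.84 with the sum. An adipose list of 11 genes, 6 of them at a median under 1 CPM, ranged between 55.6 and 169 CPM and had an r of 0.54 (rho 0.495, and 0.554 without the 2 fish). Its leading genes differed, with an r of 0.262 for plin3 and 0.455 for plin1, both lipid droplet genes, and 0.066 for pparg. A thrombocyte list ranged between 637 and 993 CPM and had an r of -0.511 (rho -0.436), which was -0.309 when the counts of the group were left out of the library totals. The erythrocyte list had an r of 0.23, and the log2 library total an r of -0.316. The r was -0.262 for a B cell list, -0.381 for a T cell list, -0.137 for a macrophage list and -0.289 for a muscle list. With the counts of the group left out of the totals these were -0.093, -0.229, -0.07 and -0.143, and the liver, adipose and erythrocyte lists had 0.63, 0.597 and 0.324. In all, 10 relations with the sum were computed besides those of single genes. The measures of a fish come from the same library, and the part of these cell types in the result was not tested.

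The other 80 genes differed between fish in another form. In 55 of them the 36 spleens fell into 2 clusters, separated by a gap of at least 2 on the log2 scale with at least 2 fish on each side, whereas of the 70 genes of the digestive enzyme group only tryp had such a gap. The rule chose genes by their spleen spread, and a gap of this size itself adds to that spread. The spleen clusters are thus a description of the chosen genes, with no share over all genes beside it. In 46 of the 55 genes, every fish of the upper spleen cluster was also higher in the DI than every fish of the lower cluster. Of the 80 genes, 71 were under 1 CPM in the spleen of at least 1 fish, and in 16 of these exactly the same fish were under 1 CPM in both tissues. Over all 80 genes and 36 fish, the spleen and the DI were on the same side of 1 CPM in 86.2% of cases, against 50.2% in the digestive enzyme group and 97.5% over all genes. Where fish fall into clusters, a coefficient over all fish reads the clusters, so the named genes below are described by their clusters. Within the upper cluster, the median r between the tissues was 0.40 over the 54 genes with at least 6 fish there (range -0.349 to 0.878), and 23 of the 54 had an adjusted permutation p under 0.05 over the 55 relations computed. That adjustment does not cover all genes, and the fish of each cluster were set by the spleen levels that chose the genes. The diet means were not removed for the coefficients within a cluster, here and for the named genes below, so differences between diets can enter them. Their permutations were not kept within diets either. No share over all genes stands beside the 23, so whether it is more than other genes would give was not tested.

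The gene with the largest spleen SD of all, ENSSSAG00000116104 (SD 4.10), lies on an unplaced scaffold, where no gene was paired with RefSeq. It was at most 0.051 CPM in the spleen and 0 CPM in the DI of 25 fish, and between 255 and 430 CPM in the spleen and 175 and 926 CPM in the DI of the other 11. No fish fell between the clusters in either tissue. The low cluster held 4 of 6 fish in each of the SBM, ICJ, ACJ and AWA diets, 6 of 6 fish fed IWA and 3 of 6 fish fed FM. Within the 11 upper fish, the tissues had an r of 0.417 (permutation p = 0.203, adjusted p = 0.298 over the 55 relations).

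The gene kif28 (chr9:12315908-12335059), which encodes a kinesin, a motor protein of microtubules, was at most 0.159 CPM in the spleen of 27 fish and between 24.8 and 45.0 CPM in the other 9. The same 27 fish had at most 0.129 CPM in the DI, and the 9 had between 3.23 and 28.4 CPM there. It was the only member in a list of cell cycle genes, which took in every kinesin gene. For ENSSSAG00000073387 on chromosome 22, 14 fish were at most 0.053 CPM in the spleen and 22 between 5.71 and 15.9 CPM, and the DI divided the same fish. ENSSSAG00000095775 on chromosome 4 was at 0 CPM in the spleen and the DI of 23 fish, and between 10.9 and 41.3 CPM in the spleen of the other 13. In each of these genes the clusters of the 2 tissues held the same fish.

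**Figure D3:**
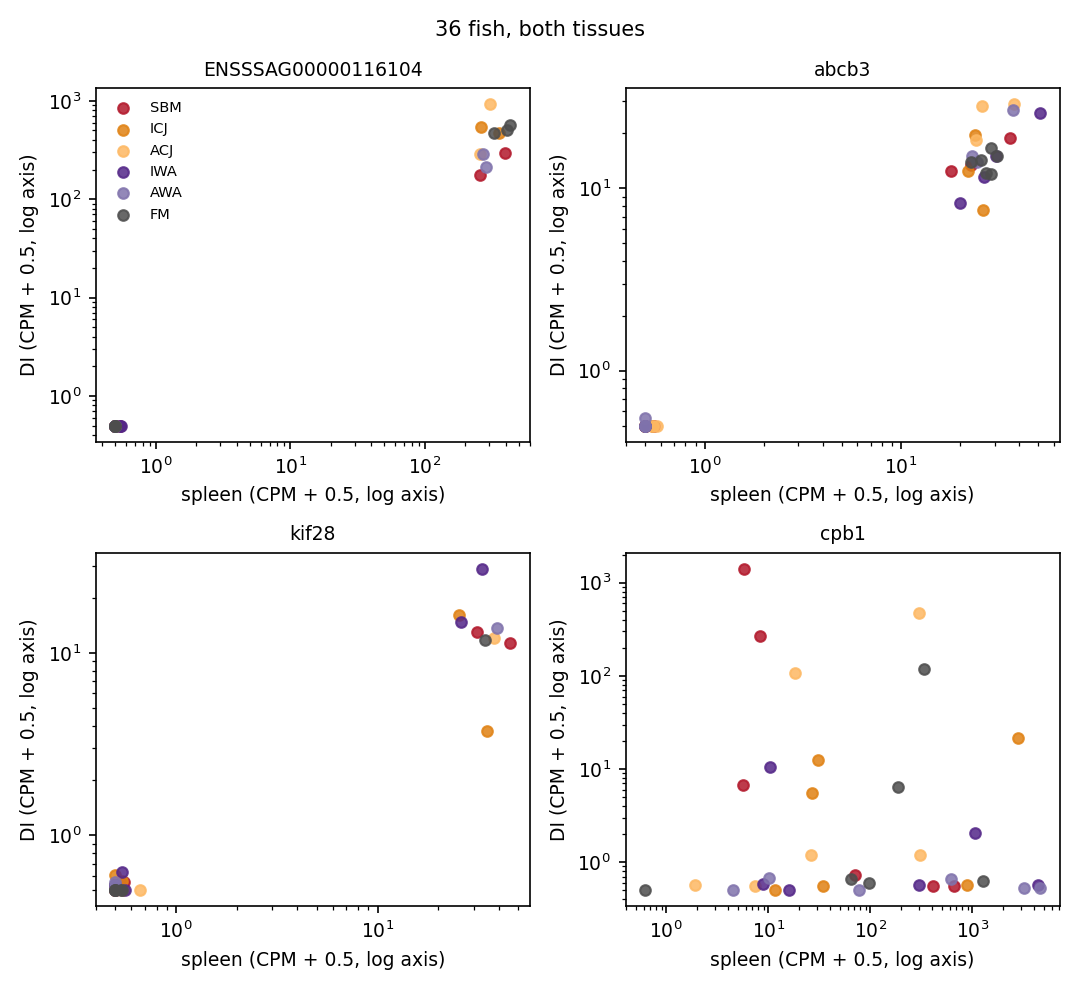
Level in the spleen (x axis) against the DI (y axis) of the same fish for 4 genes, as CPM plus 0.5 on log axes, with 1 point per fish coloured by diet. For ENSSSAG00000116104, abcb3 and kif28 the 36 fish form 2 clusters that hold the same fish in both tissues, of 25 and 11, 14 and 22, and 27 and 9 fish, and for cpb1 they form none.

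The plot of 4 genes sets these patterns beside cpb1, for which no relation between the spleen and the DI was called (r = -0.017, adjusted permutation p = 0.993). Among the 10 genes with the highest coefficients were also LOC106597139 on chromosome 17, LOC106610272 on chromosome 8, ENSSSAG00000085086 on chromosome 6 and ENSSSAG00000113873 on an unplaced scaffold. Each of these had 2 clusters with the same fish in both tissues, and in LOC106610272 the 28 upper fish also followed each other within the cluster (r = 0.878, rho = 0.86, adjusted permutation p = 0.000183). All 10 had the smallest p that the permutations can give, 1e-05, and an adjusted permutation p of 0.000973 over all genes.

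The gene abcb3 (chr27:10536644-10543577), also named tap2 in RefSeq, encodes a subunit of the transporter that carries peptides into the endoplasmic reticulum for loading onto MHC class I. It was the only member found in lists of MHC and antigen presentation genes (1 of 20 past the filters) and of interferon response genes (1 of 20). In fish fed FM its spleen level was 22.2 CPM at the lowest, 27.3 CPM at the median and 30.1 CPM at the highest, and its DI level 11.5, 13.6 and 16.1 CPM. In 14 fish it was at most 0.072 CPM in the spleen and 0.0529 CPM in the DI. They were 3 of 6 fish fed SBM, 3 fed ICJ, 3 fed ACJ, 2 fed IWA, 3 fed AWA and 0 fed FM. The difference between diets was not called by edgeR in the spleen (any diet, adjusted p = 0.995 by edgeR).

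The neighbouring gene LOC123730958 (chr27:10558363-10564750), 14.8 kb from abcb3, was at 0 CPM in both tissues of the same 14 fish and at least 33.6 CPM in the spleen and 22.4 CPM in the DI of the other 22. Both genes therefore divided the fish in the same way. On an unplaced scaffold, ENSSSAG00000077602 had the opposite order. The 14 fish under 1 CPM of abcb3 held the 14 highest spleen levels of ENSSSAG00000077602, between 36.4 and 63.8 CPM, and the highest level in any other fish was 28.9 CPM. The 4 spleens with the most abcb3, between 35.5 and 50.4 CPM (ACJ replicate 2, AWA replicate 5, IWA replicate 6 and SBM replicate 2), held the 4 lowest levels of ENSSSAG00000077602, at most 1.53 CPM. In the remaining 18 fish abcb3 lay between 17.5 and 30.1 CPM and ENSSSAG00000077602 between 13.4 and 28.9 CPM.

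**Figure D4:**
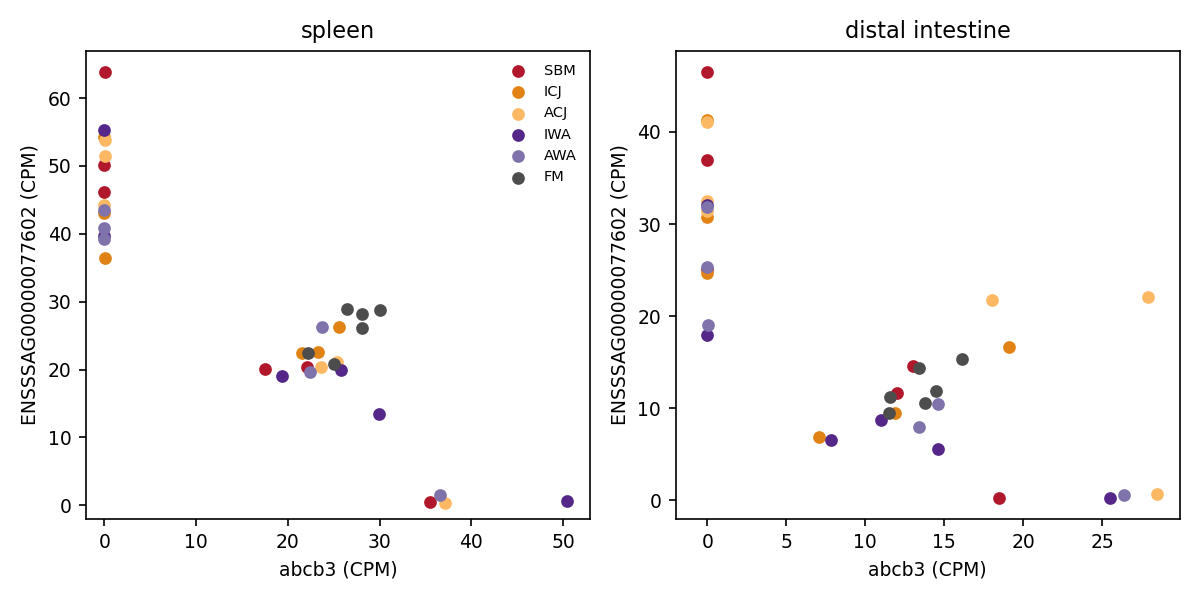
Level of abcb3 (CPM, x axis) against ENSSSAG00000077602 (CPM, y axis) in the spleen and the distal intestine, with 1 point per fish coloured by diet. In the spleen 14 fish with abcb3 under 1 CPM lie at 36.4 to 63.8 CPM of ENSSSAG00000077602, 18 fish lie between, and 4 fish with 35.5 to 50.4 CPM of abcb3 lie at or under 1.53 CPM.

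In the DI, as drawn in the plot of abcb3 against ENSSSAG00000077602, the order was nearly the same. Of the 14 fish under 1 CPM of abcb3, 12 were among the 14 highest for ENSSSAG00000077602, and the 4 lowest fish were those of the spleen, at most 0.709 CPM, with 3 of them among the 4 highest for abcb3. Within the 32 fish of its upper cluster, ENSSSAG00000077602 had an r of 0.839 between the tissues (rho 0.821, adjusted permutation p = 0.000183). These 32 fish were the 14 fish under 1 CPM of abcb3 and the 18 remaining fish, whose spleen levels did not overlap. The coefficient thus also reads 2 sets of fish, and a relation within each set was not tested. Reads that map to several places, as those of near-identical gene copies do, were not counted for these genes.

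Neighbouring genes among the 80 often varied together. Of 14 pairs within 100 kb of each other, 10 had a within-diet r above 0.5 in the spleen, against 57 of all 3160 pairs. The median r of the 14 was 0.803 in the spleen and 0.835 in the DI, against 0.005 and 0.064 over all pairs. Several of the 14 pairs join the same neighbouring genes on chromosome 17, so the pairs are not separate cases. The 10 pairs included LOC106591257 and ENSSSAG00000112615 on chromosome 2, 0.935 kb apart, which were at or under 0.146 CPM in 3 spleens and at least 16.5 CPM in the other 33. They also included ENSSSAG00000048853 and ENSSSAG00000115001 on chromosome 17, 74.1 kb apart, both high in 9 spleens and low in 27. Genes that lie this close can overlap or share reads, and 37 of the 80 genes (46.2%) overlapped another annotated gene, against 45.2% of all genes.

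Immunoglobulin and T cell receptor variable segments are chosen and joined anew in each lymphocyte, and the segments a fish carries differ between individuals. Of the 80 genes, 8 (10%) overlapped a RefSeq variable segment or constant region gene, against 0.247% of all genes. Such overlaps were looked for on chromosomes only, so the 23 of the 80 genes on unplaced scaffolds could not be counted. The 8 were LOC123743786 and ENSSSAG00000085954 on chromosome 7, ENSSSAG00000057854, LOC123741717, ENSSSAG00000090195, ENSSSAG00000048853, ENSSSAG00000112894 and ENSSSAG00000121446. LOC123743786 was at most 2.95 CPM in 4 spleens and between 38.1 and 315 CPM in the other 32. A set of 5 genes varied together in the spleen (median pair r 0.60, and 0.667 in the DI), with 4 of them on chromosome 3, and was led by ENSSSAG00000121862, ENSSSAG00000115613 and ENSSSAG00000057854. Of this set only ENSSSAG00000057854 was among the 8 genes that overlapped a segment. A set of 4 led by ENSSSAG00000038144, ENSSSAG00000084315 and LOC106571619 had a median pair r of 0.534, and 0.468 in the DI, and none of its genes was among the 8.

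Unplaced scaffolds held 23 of the 80 genes (28.7%), against 1 of the 70 genes of the digestive enzyme group and 1.90% of all genes. Taken over the 80 genes, each fish could be found again from its other tissue, and the DI library most like a spleen library was that of the same fish in 36 of 36 fish, as was the spleen library most like a DI library. The lowest coefficient between the tissues of a fish was 0.646, and the highest between different fish was 0.591. Over the 70 genes of the digestive enzyme group, the own DI library came first in 3 of 36 fish. The fish numbers in the labels thus matched in both tissues, also for ICJ replicate 4.

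Not all of the 80 genes followed the fish. The test did not call 12 of them, and the lowest was ENSSSAG00000089551 (r = -0.301, adjusted permutation p = 0.534). It lay between 0 and 21.8 CPM in the spleen with a median of 8.86 CPM, and between 18.4 and 304 CPM in the DI with a median of 189 CPM. Its spleens fell into clusters of 14 and 22 fish, and the DI levels of these fish overlapped.

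Differences between the diets were tested in each tissue on all genes with edgeR. In the spleen, 0 of 32144 genes had an adjusted p under 0.05 for SBM|FM, ICJ|FM, ACJ|FM, IWA|FM, AWA|FM or any diet, which is 0.0% in each, and so 0 of the 150 genes were called. At an unadjusted p under 0.05, edgeR gave 1 of the 150 genes for SBM|FM, 2 in each of ICJ|FM, ACJ|FM and IWA|FM, 10 in AWA|FM and 10 in the test of any diet, against 2554, 2093, 2613, 1914, 2958 and 1645 of all genes. DESeq2 called between 4 and 25 genes per diet and 0 of the 150. The smallest adjusted p of a member was 0.352, for ENSSSAG00000111467 in AWA|FM. The median fitted log2 fold change of the digestive enzyme group was -0.75 in SBM|FM, 0.70 in ICJ|FM, -1.73 in ACJ|FM, 1.4 in IWA|FM and 2.04 in AWA|FM, and none of its genes was called. These 5 comparisons share the 6 FM fish. For 0 of the 150 genes the spleen levels of a diet lay apart from those of FM without overlap, against 0.19%, 0.0822%, 0.18%, 0.0617% and 0.36% of the 19462 genes in the 5 comparisons, taken in the same order.

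In the DI, the SBM|FM comparison gave 6 called genes of 32157 by edgeR, ICJ|FM gave 15, ACJ|FM 1, IWA|FM 99 and AWA|FM 1097, which is 0.0187%, 0.0466%, 0.00311%, 0.308% and 3.41%. Of the 150 genes, 2 were called, both lower in AWA|FM. The share of members called in AWA|FM depended on the test. DESeq2 called 36 of 148 members, 35 of them lower, against 4.97% of all genes. At an unadjusted p under 0.05, edgeR gave 61 of 150 members, against 24.2% of all genes. The DI filter of the rule read the levels of these same FM fish, and 43 of the 150 genes passed it through a single one. The members were thus not chosen apart from this comparison, and their shares are no support for a diet effect on them. Without FM replicate 1, edgeR gave 10 of 150 members at an unadjusted p under 0.05, against 6269 of 32482 genes.

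The DI fold changes of the digestive enzyme group rested on single fish. Its median log2 fold changes by edgeR were 3.33 in SBM|FM, -1.27 in ICJ|FM, 1.96 in ACJ|FM, -3.12 in IWA|FM and -5.61 in AWA|FM. Without FM replicate 1, whose DI sum of 4122 CPM was the highest of the FM fish, they were 6.64, 1.71, 5.31, -0.12 and -2.42 in the same order, and the sign of ICJ|FM turned. Without SBM replicate 5 the median of SBM|FM was 1.24.

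No overlap between a diet and FM was seen in the DI for pdia2 in ICJ|FM, LOC106588377 in IWA|FM, and 4 genes in AWA|FM, LOC106571374, LOC106588377 and LOC100136417 among them, and for no member in SBM|FM or ACJ|FM. Of all 19462 genes, 0.483% did not overlap in SBM|FM, 0.807% in ICJ|FM, 0.17% in ACJ|FM, 3.12% in IWA|FM and 7.23% in AWA|FM. LOC106588377 is named here after its values were seen.

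Of the 2 genes called in AWA|FM, ENSSSAG00000121446 (chr17:65687133-65687681) overlaps a variable segment. It had 0, 0.122 and 0.849 CPM at the lowest, median and highest in the DI of fish fed AWA, against 0.0978, 0.721 and 401 CPM in fish fed FM, and the groups overlapped. The 401 CPM were those of FM replicate 1, which also had 208 CPM in the spleen. The log2 fold change was -8.35 with a standard error of 2.24 (edgeR, adjusted p = 0.0365), and -2.40 with an adjusted p of 0.437 by edgeR without FM replicate 1, so the call rested on that fish.

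For any difference between the 6 diets in the DI, edgeR called 122 genes (0.379%) and 8 of the 150, all 8 in the digestive enzyme group. They were ENSSSAG00000062912, LOC100194600, ENSSSAG00000090777, ENSSSAG00000098776, vmo1, LOC106598364, ENSSSAG00000099294 and ENSSSAG00000009187, with adjusted p between 0.029 and 0.0476. Without SBM replicate 5, the DI with the largest sum of the group, their adjusted p by edgeR were between 0.122 and 0.297, so none of these calls held without that fish. Without ICJ replicate 4 the edgeR adjusted p of ENSSSAG00000062912 was 0.0545 and that of vmo1 0.0507. With the replicate number as a block, the edgeR adjusted p of the 8 genes were between 0.254 and 0.43. Without FM replicate 1 they were between 0.00796 and 0.0191 by edgeR, and 46 of the 150 genes were called, against 158 of 32482 genes. The adjusted p by DESeq2 was 0.108 for ENSSSAG00000090777, 0.183 for LOC106598364 and at most 0.0025 for the others. This test also uses the FM fish whose DI levels the filter read, and 31 of the 70 genes of the group passed it through 1 of them. The 8 calls, and the 46 without FM replicate 1, are thus no support for a diet effect on the members.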

How the data were processed

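RNA-seq libraries were made with a stranded mRNA kit from the spleen and the DI of 36 Atlantic salmon. According to the labels, the file headers and the study's methods, the authors trimmed reads with Trim Galore, aligned them to Ssal_v3.1 with STAR and RSEM, and counted fragment pairs per gene with featureCounts (1.4.6 in the labels, 1.5.1 in the file headers) as reverse-stranded, without fragments that map to several places. The deposited values are raw counts. Duplicates were marked but still counted. Genes of near-identical copies therefore lose reads, and the precision of low genes is limited by depth.

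CPM, ranks, clusters and correlations were computed with Python 3.11.15, numpy 2.4.6, pandas 2.3.3 and scipy 1.17.1. Members were grouped by average linkage on 1 minus r, divided at 0.5, and groups of at least 4 genes were described. Diets were compared with edgeR 4.0.16 in R 4.3.3 (TMM, default filter on low counts, robust quasi-likelihood test, 1 fit of 36 libraries per tissue, Benjamini-Hochberg adjustment, threshold 0.05). Spleen and DI were joined by the fish number in the labels. DESeq2 1.42.0, other scalings, filters, pseudocounts, a rank correlation, the replicate number as a block and libraries left out were alternatives. Tested on simulated data, the edgeR fit of the spleen for AWA|FM recovered 68% of simulated log2 changes of 1 and 88% of those of 2. The 200 changed genes were drawn from 31906 genes, whereas the members were chosen for the largest spread. In AWA|FM the standard error of the spleen log2 fold change was 1.805 for cpb1 and 1.744 for tryp. The rates therefore do not apply to the members, for which none was computed.

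Gene symbols came from RefSeq by position on chromosomes, not on unplaced scaffolds, for 34983 of the 69389 genes, and no sequences were used. The members and the lists were chosen with earlier results of these data known. The text names the 20 members of largest SD, those of highest and lowest correlation, the members in lists, the 3 leading genes of each group, the called genes and those next to the limit. The gap of 2 was chosen after seeing the data. Values of 1 called member are not reported here.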

Additional observations from a re-analysis of the deposited data

Results flagged for a closer look

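In 131 sets of 6 fish, 1 diet in 1 tissue, the highest or lowest fish was compared with the others, and in 17 sets its gap to the nearest fish took more of the range than Dixon's critical value for 6 samples. The values were compared as log2 of CPM plus 0.5. Chance gives about 1 in 20 such sets only where values are normally distributed. Several of these genes formed 2 clusters or lay near 0 CPM in most fish, and the genes tested were chosen for their spread. The 17 sets can thus not be set against that share. For ENSSSAG00000077602 the lowest fish stood apart in the spleen of fish fed SBM (0.547 CPM), ACJ (0.295 CPM), IWA (0.689 CPM) and AWA (1.53 CPM), and in the DI of fish fed SBM (0.237 CPM) and ACJ (0.709 CPM). For kif28 the highest fish stood apart in the spleen of fish fed ACJ (37.2 CPM), AWA (38.7 CPM) and FM (33.8 CPM), and in the DI of the same diets with 11.5 CPM for ACJ, 13.2 CPM for AWA and 11.3 CPM for FM. For ENSSSAG00000121446 a single fish reached 79.5 CPM in the spleen of fish fed ICJ, 208 CPM in the spleen of fish fed FM and 401 CPM in the DI of fish fed FM. The summed level of the digestive enzyme group in the DI of fish fed FM had a highest value of 4122 CPM, in replicate 1. The highest level of cbpa1 in the DI of fish fed IWA was 5.37 CPM.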

How the results depend on the processing

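The 0 members called between diets in the spleen remained 0 under every alternative run. Over all genes, the spleen count for each diet summed over the 5 comparisons was 1 with only the 12 libraries compared and 57 with DESeq2, and that for any diet was 17 without a filter on low counts and 27 with DESeq2. In the DI the count of genes for each diet, 1218 in sum, was 481 without the filter, 3522 with only the 12 libraries compared, 4216 with DESeq2 and between 357 and 2718 without ICJ replicate 4, FM replicate 1 or SBM replicate 5. The members called there, 2, were 1 without the filter, 6 with 12 libraries, 41 with DESeq2 and between 1 and 2 without those libraries. For any diet in the DI, 122 of 32157 genes and 8 of 150 members were called, against 318 genes without the filter. DESeq2 called 1402 of 53047 genes and 36 of 148 members. Without SBM replicate 5 edgeR called 2 members, against 111 of 32506 genes. Without ICJ replicate 4 it called 7, against 139 of 32436 genes, and without FM replicate 1 it called 46, against 158 of 32482 genes. The median DI SD of 1.80 was 1.29 with a pseudocount of 2 CPM. The cause of these changes was not tested. The 69 members called between the tissues were between 59 and 71 under all alternatives, and 109 to 147 of the 150 members remained under other rules. Replicate numbers did not pair the fish, since the mean correlation of same-numbered fish was 0.0449 in the spleen and -0.0166 in the DI. With the replicate number as a block, the DI count was 577 genes and 1 member for each diet, and 3 genes and 0 members for any diet, and the median log2 fold change of the digestive enzyme group in ICJ|FM turned to 0.39. At these depths a value of 0 CPM is a count of 0 and does not show that a transcript is absent.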

Other observations

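Lists of genes that respond to handling, stress or time of day held no member. None of 20 immediate-early, 18 heat shock, 12 glucocorticoid and stress or 15 circadian clock genes past the filters was among the 150, and their median spleen SDs of 0.227 to 0.259 lay close to the 0.213 of all genes. None of 4 erythrocyte, 4 B cell, 11 T cell, 18 macrophage and granulocyte or 17 multigene immune family genes past the filters was a member either. With 150 members among 19462 genes, any lists of this size would hold few members or none. A part of handling, stress, time of day or these cell types was not tested. ENSSSAG00000089888 on chromosome 17, named after its values were seen, and LOC123743786 on chromosome 7 varied together across fish, with a within-diet r of 0.881 in the spleen and 0.961 in the DI. Among all 3160 pairs of the 80 genes outside the digestive enzyme group, 41 had an r below -0.5 in the spleen, and 11 of these also in the DI.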
